A study of Mus musculus with 8 samples.

Results

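The 10 genes described here, which build, remodel and take up plasma lipoproteins, were followed across 4 mouse liver genotypes: the apolipoprotein genes Apoa1, Apoa2, Apoa4, Apob, Apoc3 and Apoe, the lipid transfer genes Mttp and Pltp, the hepatic lipase gene Lipc, and the lipoprotein receptor gene Scarb1. They were chosen by name, and a probe set was taken for a gene only where the array annotation gave it that gene and no other. By that rule 9 of the 10 genes were measured, out of 12393 genes on the array, and Lipc is not analysed here. Where a gene had several probe sets, the one with the highest mean over all 8 arrays stood for it, and the others were used as a check.

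The study measured liver RNA on Affymetrix arrays in wild-type mice, in SHP-/- mice, in leptin knockout OB-/- mice and in OB-/-/SHP-/- mice that lack both genes, with 2 arrays per genotype. All groups shared a C57BL strain background and a standard rodent chow in virus-free housing. The labels give neither the age nor the sex of the mice, nor whether replicate arrays are from different mice, so the p-values reflect only how far these arrays varied, which could be technical variation. SHP, encoded by Nr0b2, is a nuclear receptor that lacks a DNA-binding domain and acts as a repressor of other transcription factors, and leptin is the adipose hormone whose loss causes severe obesity with a fatty liver. The study's title asks which genes SHP regulates in wild-type and ob/ob mice.

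The liver secretes triglyceride in very low density lipoprotein (VLDL), whose scaffold is apolipoprotein B and whose first lipid is added by the microsomal triglyceride transfer protein. Apolipoproteins A1 and A2 are the main proteins of high density lipoprotein (HDL), which is remodelled in plasma by phospholipid transfer protein and hepatic lipase and gives up its cholesterol to the liver through the scavenger receptor SR-BI, the product of Scarb1. SHP is known as a repressor of Mttp transcription.

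The RefSeq promoter table has entries for 8 of the 10 genes, all but Apoc3 and Scarb1. Of the 3 genes that passed the test in any comparison, Apoa4 and Pltp have 1 start there, so the 250 bases before that start are printed for them, 5′ to 3′ on the gene's own strand, from RefSeq with the assembly GRCm38.p6. The Apoa4 window is chr9:46240594-46240843 on the plus strand and the Pltp window is chr2:164857709-164857958 on the minus strand. Capitals mark the matches found to 6 motifs, searched on both strands: AGGTCA, the core of many nuclear receptor sites, CAAAGTNCA for HNF4A, CAAGGNCA for NR5A2, ACGTCA, a core of cyclic AMP response elements, the GC box GGGCGG and the TATA box TATAAA. No motif shared its bases with another match.
Apoa4: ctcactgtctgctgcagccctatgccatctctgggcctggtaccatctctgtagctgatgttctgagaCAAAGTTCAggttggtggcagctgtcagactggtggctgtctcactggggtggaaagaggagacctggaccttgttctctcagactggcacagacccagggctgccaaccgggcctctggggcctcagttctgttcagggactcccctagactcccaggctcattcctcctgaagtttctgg
Pltp: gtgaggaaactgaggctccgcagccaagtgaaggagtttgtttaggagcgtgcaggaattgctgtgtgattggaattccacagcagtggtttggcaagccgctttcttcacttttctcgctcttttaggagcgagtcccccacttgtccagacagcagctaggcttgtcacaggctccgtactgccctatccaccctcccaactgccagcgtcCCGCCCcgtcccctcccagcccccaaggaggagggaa
The Apoa4 window held a match to the HNF4A core, beginning 182 bases before the start, and 1.19% of 32851 promoter windows of the same length hold one. In the Pltp window the match was a GC box on the opposite strand, beginning 37 bases before the start, which 32.7% of windows hold. The other motifs were present in 14.0% of windows for AGGTCA, 5.53% for CAAGGNCA, 6.47% for ACGTCA and 12.4% for TATAAA. A match is a description of the letters and not of binding.

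The arrays were alike in scale, with medians from 5.45 to 5.56 on the deposited log2 scale, and the albumin gene Alb lay between 13.87 and 14.07 on every array. Correlations over all genes were 0.992 to 0.995 between arrays of one genotype and 0.972 to 0.994 between genotypes. Nr0b2 stood at 8.74 and 8.71 (wild-type), 7.78 and 8.31 (SHP-/-), 8.01 and 8.01 (OB-/-) and 7.11 and 6.66 (OB-/-/SHP-/-), and how its probe set sits relative to the deletion is unknown. Lep was near the floor of the scale on all arrays, at 3.16 to 3.53, so it checks nothing in this tissue. A single array stood apart in OB-/-, where replicate 1 had Xist at 7.41 against 4.31 to 4.70 elsewhere, and a single array in SHP-/-, where replicate 1 had Fos at 11.95 against 5.17 to 6.98 elsewhere. They are called the Xist and Fos arrays below, and results are also given with both left out. The Y-linked gene Eif2s3y stood at 6.99 on the Xist array and at 6.57 or above on all 8 arrays. The Xist array was thus not set apart in Eif2s3y, and the source of its Xist signal was not tested. The other SHP-/- array, replicate 2, stood apart in the acute phase gene Saa2, at 12.23 against 8.58 to 10.59 elsewhere, and each array was also left out by itself. Values of the 3′ minus the 5′ control probe sets for Gapdh moved with genotype, from 0.79 to 1.00 (wild-type), 0.19 to 0.35 (SHP-/-), -0.07 to -0.01 (OB-/-) and 0.03 to 0.11 (OB-/-/SHP-/-). The same offset went from a mean of 1.88 in wild-type to 1.30, 0.83 and 0.86 in the other genotypes for Actb, and from 4.40 to 2.84, 1.91 and 1.99 for Pcx. The part of RNA quality in the results below was not tested. In tissue RNA, fewer cells of a type and less RNA per cell cannot be told apart.

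The lipoprotein genes divided by how far they moved. Pltp, the phospholipid transfer protein, spanned 4.05 log2 units over the 8 arrays, Scarb1 1.68 and Apoa4 1.52, while the other 6 spanned between 0.13 (Apoa2) and 0.61 (Apob). Only Pltp, Scarb1 and Apoa4 passed the test (limma, adjusted p below 0.05 over all genes) in any comparison. Leptin loss with SHP present changed 3 of the 9, with 2 higher and 1 lower, where 16.9% of all genes passed (7.58% higher, 9.36% lower). Leptin loss in the absence of SHP raised 2 of the 9, where 10.6% of all genes passed (4.95% higher, 5.62% lower). SHP loss with leptin present raised 1 of the 9, where 0.323% of all genes passed (0.226% higher, 0.0968% lower), and SHP loss in OB-/- liver raised 1 and lowered 1, where 2.14% passed (1.26% higher, 0.88% lower). The difference between the effects of SHP loss on both leptin backgrounds passed for 1 of the 9, with a negative sign, where 0.549% of all genes passed (0.355% positive, 0.194% negative). The median difference of the 9 genes lay between 0.02 and 0.10 in these comparisons, and that of all genes between -0.03 and 0.04. These comparisons share arrays in pairs, so their values are set side by side below and are not independent of each other.

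**Figure D1:**
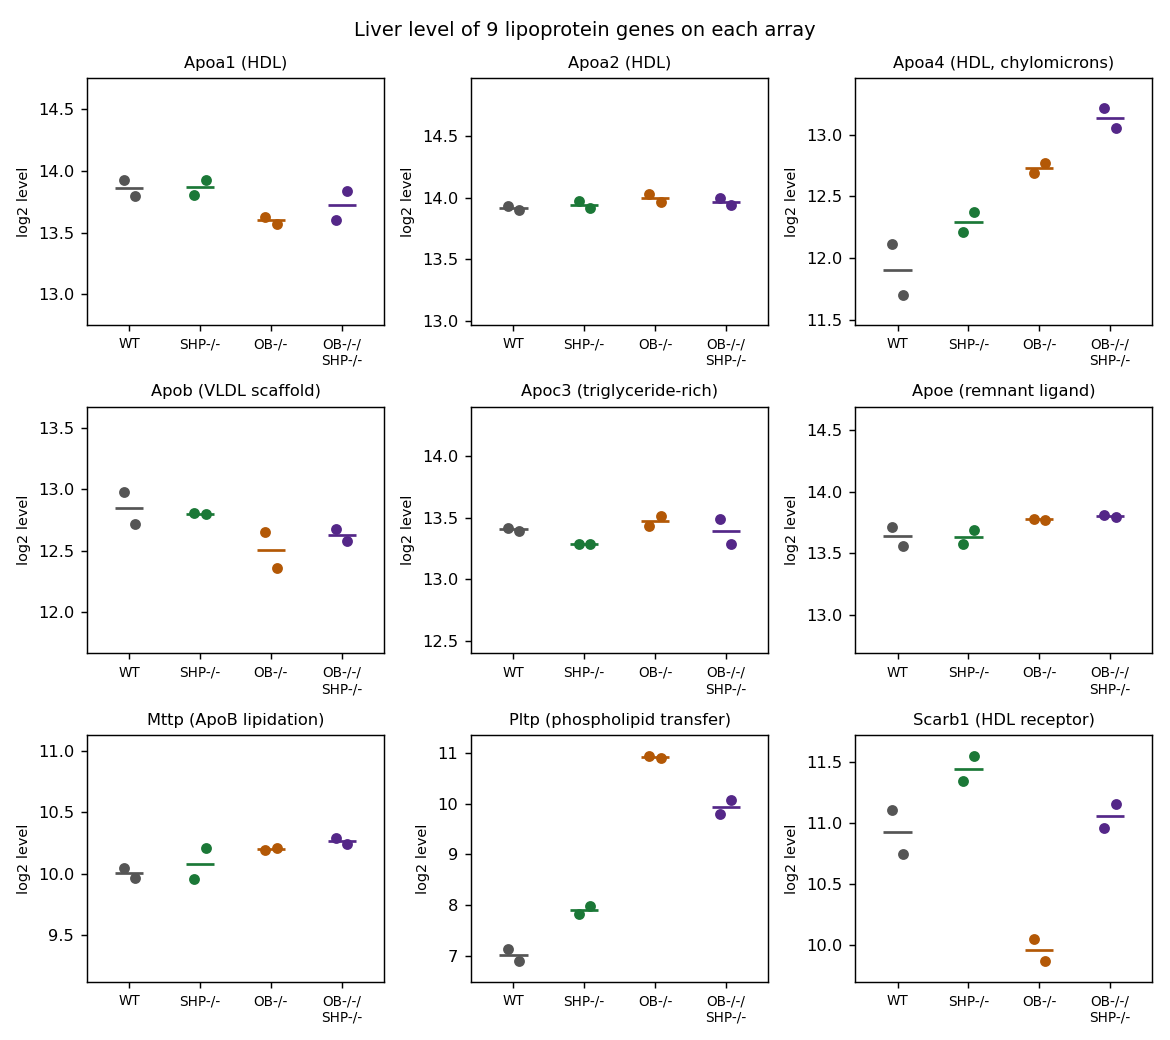
Log2 level of the 9 measured lipoprotein genes on each of the 8 arrays, 2 per genotype, with the genotype mean as a line; each panel has its own vertical axis. Pltp rises from 6.90 to 7.14 in wild-type to 10.90 to 10.94 in OB-/- liver, Scarb1 is lowest in OB-/- liver, and Apoa4 is highest in OB-/-/SHP-/- liver.

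VLDL assembly was represented by Apob and Mttp, and neither passed the test in any comparison. Apob, the scaffold of VLDL, stood at 12.97 and 12.72 (wild-type), 12.80 and 12.80 (SHP-/-), 12.65 and 12.36 (OB-/-) and 12.68 and 12.58 (OB-/-/SHP-/-). Both OB-/- arrays lay below both wild-type arrays, by a small margin. The difference of OB-/- minus wild-type was -0.34 ± 0.15 (SE, n = 2 per genotype), with an unadjusted limma p of 0.0449 and an adjusted p of 0.158. The other 3 pairs of genotypes differed in Apob by -0.17 to 0.12 (adjusted p from 0.515 to 0.984).

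Mttp, which loads triglyceride onto apolipoprotein B, stood at 10.04 and 9.96 (wild-type), 9.96 and 10.21 (SHP-/-), 10.20 and 10.21 (OB-/-) and 10.29 and 10.24 (OB-/-/SHP-/-). The SHP-/- arrays lay on both sides of the wild-type values, while both double knockout arrays lay above both OB-/- arrays by a narrow margin. SHP loss gave a Mttp difference of 0.08 ± 0.14 with leptin present (95% interval -0.22 to 0.38, adjusted p = 0.961) and of 0.06 ± 0.14 without leptin (interval -0.24 to 0.36, adjusted p = 0.930). Leptin loss gave 0.20 ± 0.14 with SHP present (interval -0.10 to 0.50, adjusted p = 0.378) and 0.18 ± 0.14 without SHP (interval -0.12 to 0.48, adjusted p = 0.443). With 2 arrays per genotype, differences of Mttp within these intervals could not be resolved. The second Mttp probe set gave -0.08 and -0.10 for the SHP comparisons, opposite in sign to the first, and 0.43 and 0.40 for the leptin comparisons, with adjusted p-values from 0.0898 to 0.962.

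Among the HDL apolipoproteins, Apoa1 and Apoa2 passed in no comparison. Apoa1, the main structural protein of HDL, stood at 13.93 and 13.80 (wild-type), 13.81 and 13.93 (SHP-/-), 13.62 and 13.57 (OB-/-) and 13.61 and 13.84 (OB-/-/SHP-/-). Both OB-/- arrays were below both wild-type arrays, with a difference of -0.26 ± 0.14 (adjusted p = 0.240), and the 4 Apoa1 probe sets gave -0.31 to -0.25 for it. SHP loss gave Apoa1 differences of 0.00 ± 0.14 with leptin present (interval -0.30 to 0.31) and 0.12 ± 0.14 without leptin (interval -0.18 to 0.43). Apoa2 ranged from 13.90 to 14.03 over all 8 arrays, and its 4 differences between genotypes lay between -0.03 and 0.08.

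Apoc3, which slows the clearance of triglyceride-rich particles, and Apoe, the ligand that clears their remnants, also passed in no comparison. Apoc3 was between 13.28 and 13.51 on all arrays, and its largest difference in size was -0.12 ± 0.13 for SHP-/- minus wild-type (adjusted p = 0.941). Apoe was between 13.56 and 13.81, and its largest difference was 0.17 ± 0.13 for OB-/-/SHP-/- minus SHP-/- (adjusted p = 0.450). The probe sets of Apoa1, Apoa2, Apoc3 and Apoe were among the brightest of the array, at the 99.9th percentile of mean level or above, with the highest value in the whole table at 14.19. Those of Apob and Apoa4 were nearly as bright, at percentiles 99.61 and 99.48. How far such bright probe sets can still follow a change in RNA was not tested.

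Apoa4, an apolipoprotein of HDL and chylomicrons that the liver also makes, was higher wherever leptin was absent. It stood at 12.11 and 11.70 (wild-type), 12.21 and 12.38 (SHP-/-), 12.69 and 12.77 (OB-/-) and 13.22 and 13.05 (OB-/-/SHP-/-). The 4 genotypes did not overlap and followed the order wild-type, SHP-/-, OB-/-, OB-/-/SHP-/-, with means of 11.91 ± 0.29, 12.29 ± 0.12, 12.73 ± 0.05 and 13.14 ± 0.11 (SD, n = 2). Leptin loss raised Apoa4 1.77-fold with SHP present (0.82 ± 0.16 log2, limma adjusted p = 0.00537) and 1.79-fold without SHP (0.84 ± 0.16, adjusted p = 0.00759). The neighbouring steps of that order by SHP loss did not pass, at 0.39 ± 0.16 with leptin present (adjusted p = 0.643) and 0.40 ± 0.16 without leptin (adjusted p = 0.325). The interaction was 0.02 ± 0.23 (interval -0.48 to 0.52, adjusted p = 0.991). Without wild-type replicate 2 the call of OB-/- minus wild-type was lost (0.62, adjusted p = 0.0526), and without the Xist and Fos arrays the call of OB-/-/SHP-/- minus SHP-/- was lost (0.76, adjusted p = 0.0755).

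The second Apoa4 probe set gave the same order, with 11.61 and 11.03 (wild-type), 11.93 and 12.02 (SHP-/-), 12.33 and 12.39 (OB-/-) and 13.09 and 13.10 (OB-/-/SHP-/-). Its differences were 1.04 ± 0.18 and 1.12 ± 0.18 for leptin loss with and without SHP (adjusted p = 0.00306 and 0.00403) and 0.66 ± 0.18 and 0.74 ± 0.18 for SHP loss with and without leptin (adjusted p = 0.209 and 0.0908). Apoa4 is also an intestinal gene, and of 5 measured enterocyte markers, Fabp2 alone passed, as higher in both leptin comparisons (0.73 and 1.03), as Apoa4 was. Of all genes 7.58% and 4.95% passed as higher in these comparisons. The summed level of the 5 was 10.68 to 10.70 (wild-type), 10.26 to 10.68 (SHP-/-), 11.20 to 11.25 (OB-/-) and 11.04 to 11.44 (OB-/-/SHP-/-), while the defining markers Vil1 and Lct stayed near the floor of the scale on all arrays, at 3.19 to 3.50 and 3.37 to 3.76. The sum was mostly Fabp2, at 10.22 and 10.29 in wild-type and 10.93 and 11.04 in OB-/- liver. From wild-type to OB-/- liver, Cdh17 went from 4.04 and 4.31 to 3.88 and 4.03, and Anpep from 8.73 and 8.43 to 8.51 and 8.14. The lowest value on any array was 2.20, so a level near the floor does not show whether a marker was present. The part of these markers in the Apoa4 result was not tested.

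Pltp, whose product moves phospholipid between lipoproteins and enlarges HDL, showed the greatest differences of the 9 genes in all comparisons but OB-/-/SHP-/- minus OB-/-, where that of Scarb1 was greater (1.09 against -0.99). Its brighter probe set stood at 7.14 and 6.90 (wild-type), 7.83 and 7.98 (SHP-/-), 10.94 and 10.90 (OB-/-) and 9.79 and 10.08 (OB-/-/SHP-/-). No genotype overlapped another, and the order was wild-type, SHP-/-, OB-/-/SHP-/-, OB-/-, with means of 7.02 ± 0.17, 7.90 ± 0.10, 9.93 ± 0.20 and 10.92 ± 0.03 (SD, n = 2). Leptin loss raised Pltp 15.0-fold with SHP present (3.90 ± 0.15 log2, limma adjusted p = 3.9e-08) and 4.08-fold without SHP (2.03 ± 0.15, adjusted p = 1.1e-05). SHP loss raised it 1.85-fold with leptin present (0.89 ± 0.15, adjusted p = 0.0383) and lowered it 1.98-fold without leptin (-0.99 ± 0.15, adjusted p = 0.00570). The difference between these 2 effects of SHP loss was -1.87 ± 0.21 (interval -2.34 to -1.41, adjusted p = 0.00128).

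The calls on Pltp were not equally firm. Its rise with leptin loss passed in all 19 alternative settings on either SHP background, at 3.78 to 4.47 and 1.89 to 2.17, and the interaction passed in all 18, at -2.54 to -1.73. Without the Xist and Fos arrays these 3 values were 3.88, 1.96 and -1.92. The rise of Pltp in SHP-/- minus wild-type was kept in 8 of 19 settings. It was lost without any single wild-type, SHP-/- or OB-/- array, at 0.77 to 1.01 and adjusted p-values from 0.0551 to 0.430, and without the Xist and Fos arrays (0.96, adjusted p = 0.126). The fall of Pltp in OB-/-/SHP-/- minus OB-/- was lost without either OB-/- array, at -0.96 and -1.01 (adjusted p = 0.0697 and 0.0657), and without the Xist and Fos arrays (-0.96, adjusted p = 0.0697).

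The second Pltp probe set stood at 6.33 and 5.70 (wild-type), 7.10 and 7.35 (SHP-/-), 10.51 and 10.46 (OB-/-) and 8.65 and 9.65 (OB-/-/SHP-/-). It gave the same order of genotypes with a wider spread, and the same signs throughout. Its differences were 4.47 ± 0.29 and 1.93 ± 0.29 for leptin loss (adjusted p = 7.5e-06 and 0.00313), and its interaction was -2.54 ± 0.41 (adjusted p = 0.0238). By this probe set the effects of SHP loss did not pass, at 1.21 ± 0.29 with leptin present (adjusted p = 0.146) and -1.33 ± 0.29 without leptin (adjusted p = 0.0591).

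Macrophages also make phospholipid transfer protein, and macrophage markers moved in the same samples. Of 10 measured markers, 9 passed as higher in OB-/- minus wild-type (median 1.46), and 0 passed in SHP-/- minus wild-type (median 0.84), where 9 had an unadjusted limma p below 0.05. Over all genes 7.58% passed as higher in the former, and 7.12% had an unadjusted limma p below 0.05 in the latter. The summed level of the 10 was 10.19 to 10.23 (wild-type), 10.66 to 11.48 (SHP-/-), 11.78 to 11.83 (OB-/-) and 11.58 to 11.98 (OB-/-/SHP-/-). In SHP-/- liver the sum was 11.48 in replicate 1, the Fos array, and 10.66 in replicate 2, where Pltp was 7.83 and 7.98. The part of these markers in the rise of Pltp with leptin loss or SHP loss was not tested. In OB-/-/SHP-/- minus OB-/-, where Pltp fell, 1 of the 10 passed, as higher (1.26% of all genes), the median was -0.09 and the summed levels overlapped. In OB-/-/SHP-/- minus SHP-/- 2 passed as higher (median 0.58), and in the interaction 0 passed, with a median of -0.88 and 6 at an unadjusted limma p below 0.05. Of all genes 4.95% passed as higher in the former, and 8.28% had an unadjusted limma p below 0.05 in the latter.

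Markers of other cell types also differed between genotypes, in part as Pltp did. Of 7 pancreas markers, 4 were higher and 1 lower in OB-/- minus wild-type (up to 4.49), 3 were lower in OB-/-/SHP-/- minus OB-/- (down to -3.31), and 2 had a negative interaction. Their summed level was 8.47 to 8.48 (wild-type), 8.33 to 8.46 (SHP-/-), 9.03 to 9.71 (OB-/-) and 7.95 to 8.05 (OB-/-/SHP-/-). The sum was highest in OB-/- liver, as Pltp was, and lowest in OB-/-/SHP-/- liver. In wild-type it was mostly Cela1, which went from 8.05 and 8.01 there to 6.96 and 6.97 in OB-/-/SHP-/- liver. The mean log2 level of the 7 was 4.48 to 4.53 (wild-type), 4.45 to 4.56 (SHP-/-), 5.72 to 6.34 (OB-/-) and 4.71 to 4.85 (OB-/-/SHP-/-). That mean, like Pltp, was above wild-type in OB-/-/SHP-/- liver. In OB-/-/SHP-/- minus SHP-/- 2 of the 7 passed as higher and 1 as lower. Of 7 stellate cell markers, 3 were higher in OB-/- minus wild-type and 1 lower in OB-/-/SHP-/- minus OB-/-. Of 7 endothelial markers, 3 were higher in OB-/- minus wild-type (up to 3.31) and 2 in OB-/-/SHP-/- minus SHP-/- (up to 1.93). In OB-/-/SHP-/- minus OB-/- and in the interaction 0 of the 7 endothelial markers passed. The one that rose most, Lyve1, stood at 3.94 and 3.94 (wild-type), 5.20 and 4.23 (SHP-/-), 7.43 and 7.07 (OB-/-) and 6.94 and 6.34 (OB-/-/SHP-/-). Over all genes 7.58% passed as higher and 9.36% as lower in OB-/- minus wild-type. In OB-/-/SHP-/- minus OB-/- 0.88% passed as lower, and 0.194% had a negative interaction that passed. In OB-/-/SHP-/- minus SHP-/- 4.95% passed as higher and 5.62% as lower. The part of these markers in the Pltp result was not tested.

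**Figure D2:**
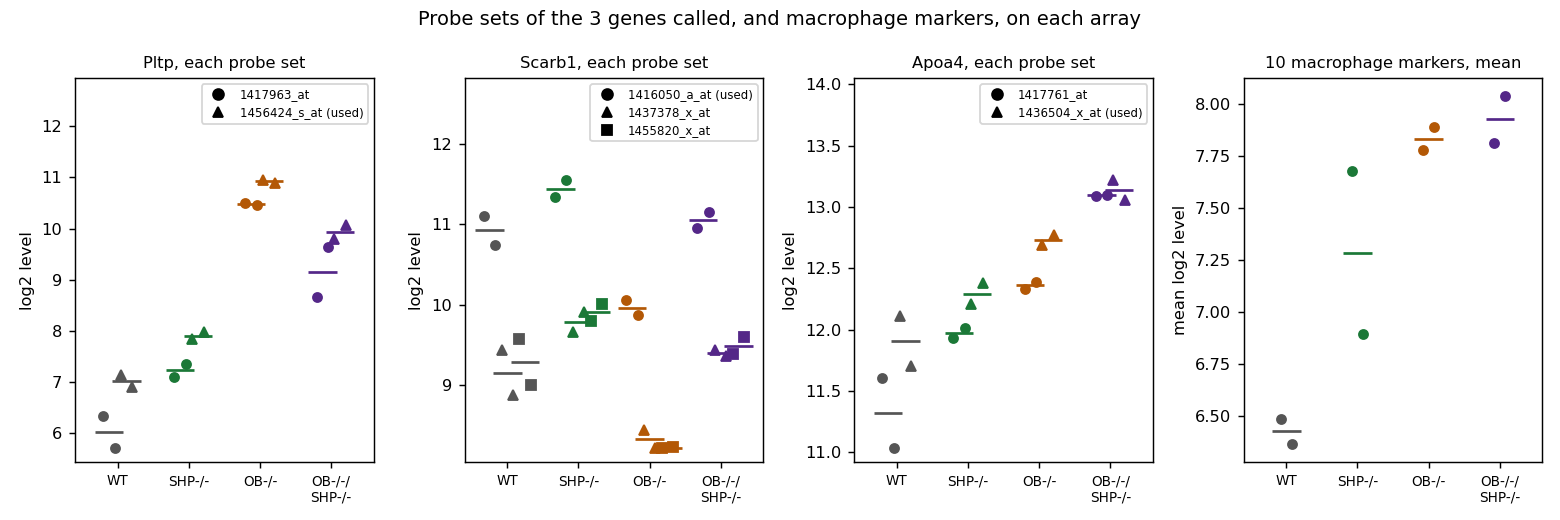
Log2 level of each probe set of Pltp, Scarb1 and Apoa4, and the mean log2 level of 10 macrophage markers, on each array; symbols mark probe sets, colours mark genotypes and lines are genotype means. All probe sets of a gene give the same order of genotype means, and the macrophage mean is 6.36 to 6.49 in wild-type and 7.78 to 7.89 in OB-/- liver.

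Scarb1 encodes the receptor through which the liver takes cholesteryl ester from HDL, and its level was lowest in OB-/- liver. Its brightest probe set stood at 11.11 and 10.74 (wild-type), 11.34 and 11.55 (SHP-/-), 10.05 and 9.87 (OB-/-) and 10.95 and 11.16 (OB-/-/SHP-/-). The OB-/- arrays lay below all others, the SHP-/- arrays above all others, and the double knockout arrays overlapped the wild-type arrays. The means were 9.96 ± 0.13 in OB-/-, 10.92 ± 0.26 in wild-type, 11.06 ± 0.14 in OB-/-/SHP-/- and 11.44 ± 0.15 in SHP-/- liver (SD, n = 2).

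Leptin loss lowered Scarb1 1.95-fold with SHP present (-0.96 ± 0.16 log2, limma adjusted p = 0.00238), and SHP loss in OB-/- liver raised it 2.14-fold (1.09 ± 0.16, adjusted p = 0.00486). The remaining steps did not pass, at 0.52 ± 0.16 for SHP-/- minus wild-type (adjusted p = 0.388) and -0.39 ± 0.16 for OB-/-/SHP-/- minus SHP-/- (adjusted p = 0.161). The interaction of Scarb1 was 0.58 ± 0.23 (interval 0.07 to 1.08), with an unadjusted p of 0.0295 and an adjusted p of 0.512, so the effects of SHP loss on the 2 leptin backgrounds were not shown to differ. All 3 Scarb1 probe sets passed in the same 2 comparisons, with -1.07 to -0.82 for OB-/- minus wild-type and 1.07 to 1.27 for OB-/-/SHP-/- minus OB-/-. The rise in OB-/-/SHP-/- minus OB-/- was lost without OB-/- replicate 2 (1.00, adjusted p = 0.0793), and stood at 1.19 (adjusted p = 0.0286) without the Xist and Fos arrays, where the fall in OB-/- minus wild-type was -1.05 (adjusted p = 0.0124). Of 7 measured hepatocyte markers, 1 passed as lower in OB-/- minus wild-type (median -0.30) and 0 in OB-/-/SHP-/- minus OB-/- (median 0.11, 3 at an unadjusted limma p below 0.05). Over all genes 9.36% passed as lower in the former, and 11.7% had an unadjusted limma p below 0.05 in the latter. The mean level of the 7 markers was 13.32 to 13.37 (wild-type), 13.37 to 13.39 (SHP-/-), 13.14 to 13.18 (OB-/-) and 13.29 to 13.33 (OB-/-/SHP-/-), and its part in the Scarb1 result was not tested.

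Read by comparison, SHP loss with leptin present left 8 of the 9 lipoprotein genes short of the threshold, with differences from -0.12 to 0.52 among them. Their arrays did not overlap between genotypes for 4 of the 9, as was so for 36.1% of all genes. In OB-/-/SHP-/- minus OB-/- the 7 genes that did not pass differed by -0.08 to 0.40, and arrays did not overlap for 5 of the 9 (40% of all genes). In OB-/- minus wild-type the arrays of all 9 genes did not overlap (57.5% of all genes), although 6 of them missed the threshold, with differences from -0.34 to 0.20. In OB-/-/SHP-/- minus SHP-/- the arrays of 7 of the 9 did not overlap (53.9% of all genes), and the 7 genes that missed the threshold differed by -0.39 to 0.18. None of the uncalled results gained a call in any alternative setting.

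**Figure D3:**
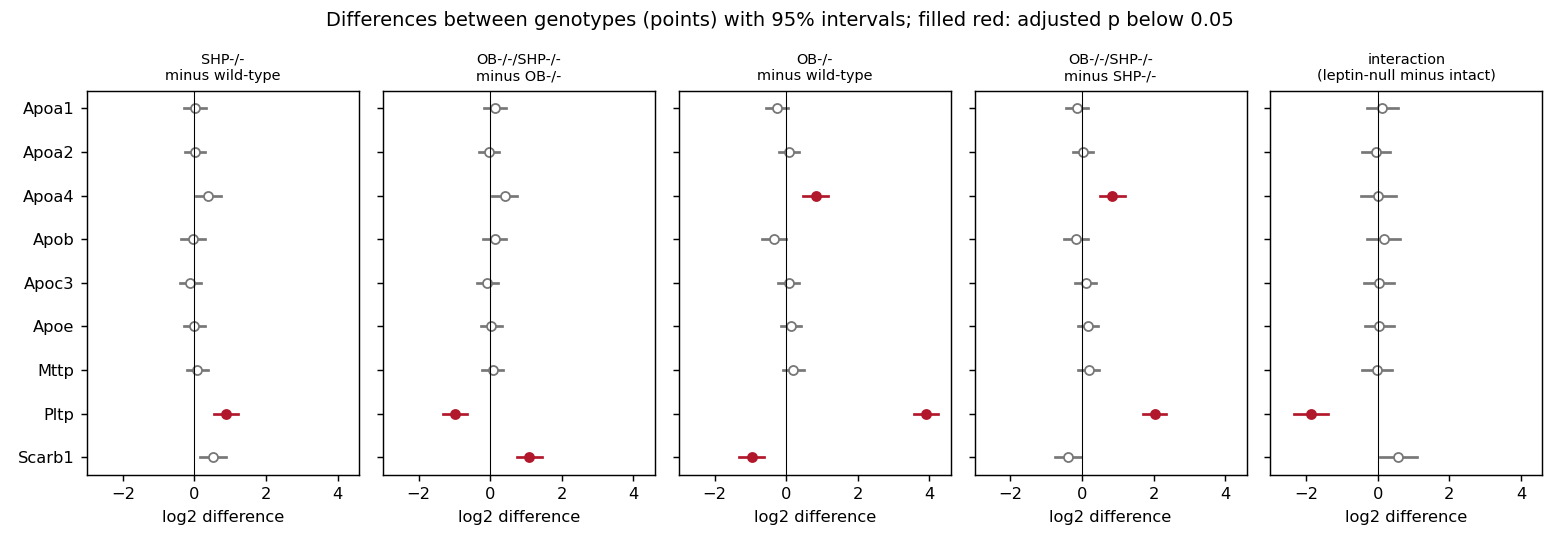
Log2 difference between genotypes for the 9 lipoprotein genes (points) with 95% intervals (lines) in 5 comparisons; filled red points passed at an adjusted p below 0.05. Pltp passes in all 5 comparisons, with 0.89 and -0.99 for SHP loss with and without leptin, while Scarb1 and Apoa4 pass in 2 each.

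None of the measured genes next to Apoa4 on the chromosome passed as higher with leptin loss. In the order of the RefSeq gene table, Apoa1, Apoc3, Apoa4 and Apoa5 follow each other, and Zpr1, which encodes a zinc finger protein, comes next. Of these 5 neighbours, Apoa4 passed as higher in OB-/- minus wild-type and Zpr1 as lower (-0.67 ± 0.14, adjusted p = 0.00687), while Apoa1, Apoc3 and Apoa5 gave -0.26, 0.07 and -0.01 and did not pass. Apoe lies beside Apoc1, with Apoc4 on its far side, and Apoc1 and Apoc4 gave 0.04 and 0.01 in the same comparison, where Apoe gave 0.14, all short of the threshold.

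The genes whose pattern over the 8 arrays was most like that of each called gene were taken from 1335 genes with a range of at least 1 log2 unit and a mean at or above the median of the table. Nearest to Pltp were Cyb5r3 (Pearson's r = 0.993), Ppp1ca (0.992) and Tceal8 (0.986). The genotype means of Cyb5r3 were lowest in wild-type (11.38), then 11.72 in SHP-/-, 12.21 in OB-/-/SHP-/- and 12.52 in OB-/- liver, the same order as Pltp over a narrower range. Nearest to Scarb1 were Gpc4 (0.974), Lrp1 (0.962) and Itpr2 (0.959), and nearest to Apoa4 were Rnf115 (0.988), Dhcr7 (0.975) and Rhbg (0.974). The points share their genotypes and arrays, so these values describe likeness and carry no test.

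Other genes of lipoprotein metabolism were described by 5 lists: other apolipoproteins, VLDL assembly, plasma remodelling, receptors and uptake, and transcriptional regulators. The lists are broader than their names. The remodelling list also holds Abcg5, Abcg8, Lipa and Npc2, and the assembly list also holds Mogat1, Acsl5 and Plin2. In SHP-/- minus wild-type, 0 of 13 apolipoproteins passed (0 at an unadjusted limma p below 0.05), as did 0 of 18 assembly genes (2), 0 of 14 remodelling genes (3) and 0 of 13 receptors (3). Over all genes 0.323% passed there and 7.12% had an unadjusted limma p below 0.05. Among 19 regulators the nuclear receptor gene Pparg fell by 1.36 on the log2 scale, and that call was lost without wild-type replicate 1 (adjusted p = 0.119). No gene of the 5 lists passed in the interaction, where 2, 3, 2, 3 and 4 had an unadjusted limma p below 0.05 in the order given. Over all genes 0.549% passed in the interaction and 8.28% had an unadjusted limma p below 0.05. For the counts below, SHP loss in OB-/- liver raised 1.26% of all genes and lowered 0.88%. Leptin loss without SHP raised 4.95% and lowered 5.62%. Of the 60 calls on genes of these lists in the 4 comparisons, 38 were kept without the Xist and Fos arrays and 51 in a fit to the 4 arrays compared. That fit ended the call of Apon in OB-/-/SHP-/- minus OB-/- and those of Apoc2, Saa4, Sort1, Lrp1, Foxa2, Srebf2, Xbp1 and Rxra in OB-/-/SHP-/- minus SHP-/-, with adjusted p-values from 0.0577 to 0.0976.

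In OB-/- minus wild-type the list of VLDL assembly had 6 of 18 genes higher and 0 lower, beside 7.58% of all genes higher. Mogat1, which makes diacylglycerol, rose by 3.76, from 4.66 and 5.01 in wild-type to 8.68 and 8.50 in OB-/- liver, Mia2, a secretory cargo receptor, by 1.87, and Ces1d, a lipase that supplies lipid to VLDL, by 1.16. The other 3, named after their values were seen, were Acsl5 (1.02), Aadac (0.78) and Sar1b (0.73), which codes for a GTPase of the coat that carries lipoproteins from the endoplasmic reticulum. The Sar1b call was lost without wild-type replicate 1 (adjusted p = 0.0501), and the other 5 were kept with any array left out; all 6 were kept without the Xist and Fos arrays. In OB-/-/SHP-/- minus SHP-/- the same list had 4 higher and 1 lower, beside 4.95% of all genes higher and 5.62% lower. These were Mogat1 (2.03), Ces1d (1.16) and Sar1b (0.81), with Acsl5 (0.85) and Sort1 (-0.63) named after their values were seen. Sort1 lost its call when an SHP-/- array or OB-/-/SHP-/- replicate 2 was dropped, and ran from -0.84 to -0.41 with an array left out. With averaged probe sets its call was also lost (-0.42, limma adjusted p = 0.0835). Without the Xist and Fos arrays Acsl5 (0.83, adjusted p = 0.0532) and Sort1 (-0.63, adjusted p = 0.141) lost theirs, and the other 3 were kept. SHP loss in OB-/- liver changed 1 of the 18, beside 2.14% of all genes. This was Mogat1, which fell by 1.85 to 6.30 and 7.17, and that call was kept with any array left out and without the Xist and Fos arrays. The Mogat1 interaction was -1.73 ± 0.35 and did not pass (adjusted p = 0.0640).

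Among the 13 other apolipoproteins, 4 were lower and 0 higher in OB-/- minus wild-type, beside 9.36% of all genes lower. Apom, which carries sphingosine 1-phosphate on HDL, stood at 11.37 and 11.22 (wild-type), 11.53 and 11.58 (SHP-/-), 9.95 and 9.88 (OB-/-) and 10.78 and 10.71 (OB-/-/SHP-/-). It fell by 1.38 with leptin loss in the presence of SHP and by 0.81 without SHP, both kept with any array left out, and rose by 0.83 with SHP loss in OB-/- liver. Like Scarb1, Apom was thus lowest in OB-/- and highest in SHP-/- liver, and its interaction of 0.57 ± 0.18 did not pass (adjusted p = 0.340). The rise of Apom was lost without either OB-/- array (adjusted p up to 0.0876), and that of Apon (0.70), the only other gene of the list to pass there, without any wild-type, OB-/- or OB-/-/SHP-/- array (up to 0.338). The falls of Apon (-0.59), Saa4 (-0.82) and, named after its value was seen, Clu (-0.50) in OB-/- minus wild-type were all lost when a wild-type array or OB-/- replicate 2 was left out (adjusted p up to 0.151), and Saa4 also with averaged probe sets (-0.47, adjusted p = 0.329). Apoc2, the activator of lipoprotein lipase, rose by 0.52 in OB-/-/SHP-/- minus SHP-/-, a call lost without any of the 4 arrays compared (up to 0.144), and Saa4 fell by 0.87, lost without replicate 2 of either genotype (up to 0.167). Its level was highest, at 11.30, in SHP-/- replicate 2, the array that stood apart in Saa2. Without the Xist and Fos arrays the falls of Apom and Apon in OB-/- minus wild-type and of Apom and Saa4 in OB-/-/SHP-/- minus SHP-/- were kept, and the other 5 calls were lost (adjusted p from 0.0697 to 0.198).

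Of 14 remodelling genes, 6 were lower and 2 higher in OB-/- minus wild-type, beside 9.36% and 7.58% of all genes. The sterol exporter genes Abcg8 and Abcg5 fell by 1.32 and 1.00 and the endothelial lipase gene Lipg by 1.28, calls kept with any array left out. With averaged probe sets Lipg was -0.62 and still passed (adjusted p = 0.0116). The other falls, named after their values were seen, were those of Furin, Angptl4 and Bmp1, between -0.50 and -0.48, each lost without any of the 4 arrays compared (adjusted p up to 0.208), and without the Xist and Fos arrays. With averaged probe sets Bmp1 was 0.07 and Angptl4 -0.29 (adjusted p = 0.142), and Angptl4 was -0.089 (adjusted p = 0.766) without x_at and s_at probe sets. Lipa rose by 0.94, and Pcsk6 by 0.73, lost without wild-type replicate 2 or either OB-/- array (up to 0.0999), both named after their values were seen. SHP loss in OB-/- liver raised Abcg5 by 0.96, a call lost without either OB-/- array or OB-/-/SHP-/- replicate 2 (up to 0.129). Lipg fell by 1.08 in OB-/-/SHP-/- minus SHP-/- and Abcg8 by 0.66, the latter lost without any of the 4 arrays compared or either OB-/- array (up to 0.163), or with averaged probe sets (adjusted p = 0.0537), where Lipg was -0.62. Without the Xist and Fos arrays Lipg, Abcg8, Abcg5 and Lipa kept their calls in OB-/- minus wild-type, Lipg kept that in OB-/-/SHP-/- minus SHP-/-, and Pcsk6, the rise of Abcg5 and the later fall of Abcg8 were lost (adjusted p from 0.0598 to 0.215).

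The receptor list had 2 of 13 genes higher and 3 lower in OB-/- minus wild-type, beside 7.58% and 9.36% of all genes. The fatty acid translocase gene Cd36 rose by 3.91, the remnant receptor gene Lrp1 fell by 1.10 and the lipolysis-stimulated receptor gene Lsr by 0.94, while Vldlr (0.95) and Lrp6 (-0.50) were named after their values were seen. The Lrp6 call was lost without wild-type replicate 1 or either OB-/- array (adjusted p up to 0.226), and with averaged probe sets (-0.31, adjusted p = 0.124). SHP loss in OB-/- liver raised Lrp1 by 0.83 and Lsr by 0.69, calls that did not survive when an OB-/- array or OB-/-/SHP-/- replicate 2 was dropped, and Lsr also without replicate 1 of that genotype (up to 0.276). Cd36 rose by 4.35 in OB-/-/SHP-/- minus SHP-/- and Pdzk1, which anchors SR-BI in the hepatocyte membrane, fell by 0.90, both kept with any array left out. Lsr fell there by 0.66, lost without replicate 2 of either genotype (up to 0.0802), and Lrp1, named after its value was seen, by 0.59, lost without any of the 4 arrays compared or either wild-type array (up to 0.217). Without the Xist and Fos arrays Lrp6, both rises with SHP loss and the later fall of Lrp1 were lost (adjusted p up to 0.231), and the other 7 calls were kept.

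Of 19 regulators, a list that holds the targeted gene Nr0b2, 7 were lower and 2 higher in OB-/- minus wild-type, beside 9.36% and 7.58% of all genes. Pparg rose by 1.33, the coactivator gene Ppargc1a fell by 1.25 and Esr1 rose by 0.74, from a level near the floor of the scale (3.56 and 3.46 in wild-type). Hnf4a, a liver nuclear receptor gene named here after its value was seen, fell by 0.76 by its brightest probe set but stood at 0.14 (adjusted p = 0.505) when its probe sets were averaged. That averaging also took Rxra from -0.73 to -0.09 (adjusted p = 0.688) and Ppargc1a to -0.72, which still passed. Calls on Ppargc1a, Hnf4a, Pparg and Esr1 were kept with any array left out, and those on the other 5 (Foxa2, Rxra, Nr0b2, Srebf2 and Nr5a2, also named after their values were seen) were lost without at least 1 wild-type or OB-/- array, with adjusted p-values up to 0.309. Without the Xist and Fos arrays Nr0b2, Srebf2 and Nr5a2 lost theirs (adjusted p from 0.0681 to 0.111). SHP loss in OB-/- liver changed 1 regulator, Nr0b2 itself, which fell by 1.13 and was lost without either OB-/- array or OB-/-/SHP-/- replicate 2 (up to 0.106). In OB-/-/SHP-/- minus SHP-/- 5 were lower and 1 higher, beside 5.62% and 4.95% of all genes, of which Pparg (2.17) and Nr0b2 (-1.16) were kept with any array left out, and Foxa2 (-0.78) was lost without replicate 2 of either genotype (up to 0.0924). The 3 others, named after their values were seen, were Srebf2, Xbp1 and Rxra, between -0.57 and -0.51, each dependent on 6 or 7 of the 8 arrays (up to 0.246). Rxra and Xbp1 were also lost without the Xist and Fos arrays, Rxra with averaged probe sets (-0.20, adjusted p = 0.345) and Xbp1 without x_at and s_at probe sets (adjusted p = 0.0658).

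**Figure D4:**
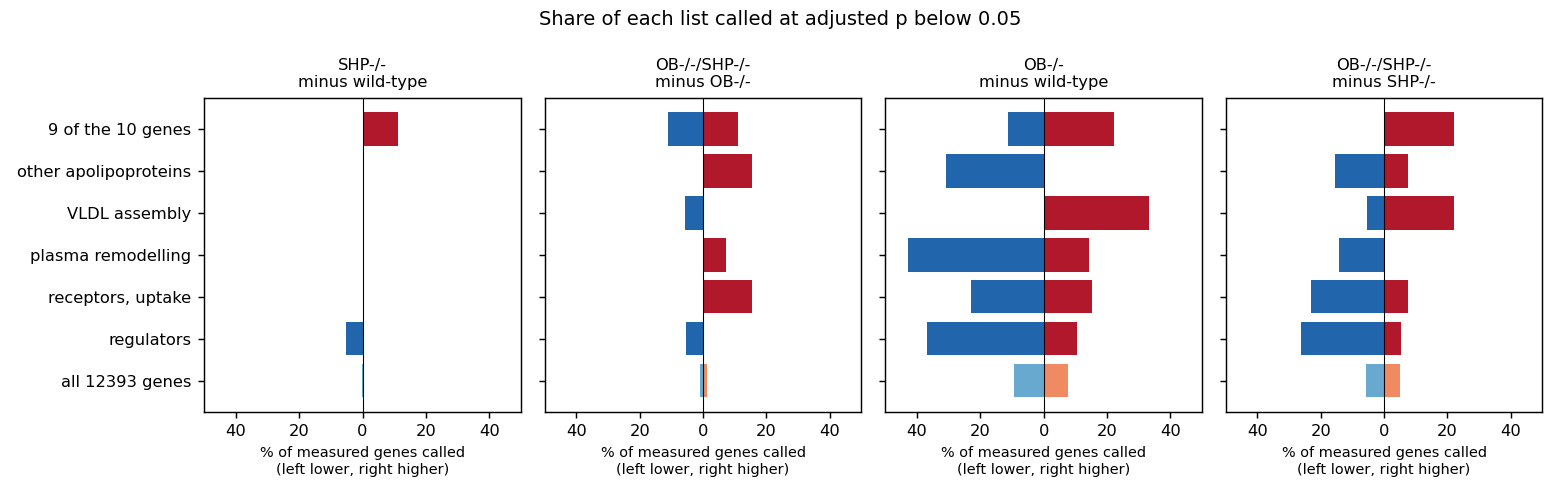
Share of the measured genes of each list that passed at an adjusted p below 0.05, lower to the left and higher to the right, in 4 comparisons, beside the same share over all 12393 genes. In OB-/- minus wild-type, 6 of 18 genes of the VLDL assembly list, which includes Mogat1 and Acsl5, are higher and 0 lower. Of the remodelling list, which includes Abcg5, Abcg8 and Lipa, 6 of 14 are lower, as are 4 of 13 other apolipoproteins.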

How the data were processed

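Liver RNA was measured on 8 Affymetrix arrays, 2 for each of 4 genotypes, grouped by sample title. For every probe set the authors deposited a value on each array; the submitters' processing notes name R 2.15.0, and how background was handled, how probes were summarised and which logarithm was used is not given in the sources used here. The deposited values, from 2.20 to 14.19, were read as normalised log2 values and used as they stand, with no filter on low levels. Precision is limited by the number of arrays. There were 22690 probe sets, of which 64 controls were left out; 20380 of the rest named 1 gene, 691 several and 1555 none. GRCm38.p6 gene tables matched 20351 gene IDs and changed 0 symbols. The probe set with the highest mean stood for each of 12393 genes.

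All 8 arrays entered 1 linear model of genotype means in limma 3.58.1 (R 4.3.3), two-sided, with 4 residual and 7.16 prior degrees of freedom, Benjamini-Hochberg adjustment over all genes and a threshold of 0.05. Errors of differences are moderated standard errors. The fit was tested on simulated data. Markers were summed on the linear scale and shown as log2. The genes and lists were chosen with earlier results of these data known. Named were all 10 lipoprotein genes, up to 3 genes per list and comparison by smallest adjusted p, and the 3 genes most like each called gene. Alternatives were other scalings, filters, moderation, probe set rules, a fit to the 4 arrays compared, a 2-fold minimum, a replicate block and each array left out; leaving out both OB-/- replicate 1 and SHP-/- replicate 1 and each further probe set by itself were added after seeing the data.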

Additional observations from a re-analysis of the deposited data

Results flagged for a closer look

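The effect of SHP loss on Pltp differed between the leptin backgrounds by the interaction test. Pltp rose by 0.89 in SHP-/- minus wild-type and fell by 0.99 in OB-/-/SHP-/- minus OB-/- liver, so the difference between both effects was -1.87 ± 0.21 (limma adjusted p = 0.00128). All 4 arrays of the leptin-intact comparison and all 4 of the leptin-null comparison were apart by genotype. The interaction passed in each of 18 alternative settings, with adjusted p-values from 2.1e-04 to 0.0238, while each of the 2 effects by itself was lost in some of them.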

How the results depend on the processing

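Of 735 values of the lipoprotein genes under the alternative settings other than the 2-fold minimum, which was applied to counts of calls, 690 kept their direction and their side of the threshold, 18 lost a call, 0 gained one and 27 changed sign. With each array left out in turn, 0 to 1 of the 9 genes passed in SHP-/- minus wild-type, 0 to 2 in OB-/-/SHP-/- minus OB-/-, 2 to 3 in OB-/- minus wild-type, 2 in OB-/-/SHP-/- minus SHP-/- and 1 in the interaction, while the counts over all genes were 5 to 95, 80 to 298, 956 to 2234, 600 to 1307 and 32 to 113. In SHP-/- minus wild-type, 0 of the 9 genes passed with averaged probe sets, without x_at and s_at probe sets, with a 2-fold minimum, in the fit to the 4 arrays compared, or without OB-/- replicate 1 and SHP-/- replicate 1. A 2-fold minimum or leaving out those 2 arrays left 1 gene in OB-/-/SHP-/- minus OB-/- and 1 in OB-/-/SHP-/- minus SHP-/-, and the 2-fold minimum left 1 in OB-/- minus wild-type. Over all genes, SHP-/- minus wild-type gave 68 calls with a trend in the moderation and 23 from 4 arrays, against 40. A 2-fold minimum gave 510 in OB-/- minus wild-type, 116 in OB-/-/SHP-/- minus OB-/- and 318 in OB-/-/SHP-/- minus SHP-/-, against 2100, 265 and 1311, and leaving out the 2 arrays gave 1121, 119 and 632, with 39 in the interaction against 68. The fit to 4 arrays gave 615 in OB-/-/SHP-/- minus SHP-/-, 254 in OB-/-/SHP-/- minus OB-/- and 2545 in OB-/- minus wild-type, so fewer arrays gave fewer calls in some comparisons and more in others. The causes were not tested.

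The values that changed sign were all uncalled and near 0 for the lipoprotein genes. For Apoa1 in SHP-/- minus wild-type they were -0.014 with equal medians, -0.0091 with averaged probe sets, -0.017 without x_at and s_at probe sets, -0.017 and -0.031 by other probe sets, and -0.062 to 0.070 with an array left out. Apoa2 stood at -0.0062 in SHP-/- minus wild-type without both arrays (-0.0062 to 0.051 with an array left out) and at -0.013 in OB-/-/SHP-/- minus SHP-/- with equal medians (-0.0044 to 0.057). The Apoa4 interaction was -0.10 without both arrays and -0.19 to 0.22 with an array left out. With an array left out, Apob gave -0.17 to 0.083 in SHP-/- minus wild-type and -0.025 to 0.27 in OB-/-/SHP-/- minus OB-/-, Apoc3 -0.18 to 0.020 in the latter, Apoe -0.079 to 0.071 in SHP-/- minus wild-type (0.053 without both arrays) and Mttp -0.043 to 0.20 there. By its second probe set Mttp gave -0.076 in SHP-/- minus wild-type and -0.10 in OB-/-/SHP-/- minus OB-/-, and -0.021 in the latter with averaged probe sets. Among the other genes named, of 1097 values 159 lost a call and 3 changed sign: Bmp1 (0.074) and Hnf4a (0.14) with averaged probe sets, and Hnf4a (0.28) without x_at and s_at probe sets, all in OB-/- minus wild-type. The causes were not tested.

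Deviations of same-numbered arrays correlated at -0.11 to 0.20 over the 6 pairs of genotypes, above 0.1 in 3 of them, so the arrays were taken to share only a number. With the replicate number as a block the 9 genes gave the same counts of calls (1, 2, 3, 2 and 1), and all genes gave 51, 275, 2147, 1359 and 77; of the 60 calls on list genes it ended those of Srebf2 and Nr5a2 in OB-/- minus wild-type (adjusted p = 0.0570 and 0.0563). The 2 arrays per genotype give a median standard error of 0.15, which limits what can be detected.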
